A study of Homo sapiens with 30 samples.

Results

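The stretch of chromosome 9 described here runs from position 138000001 to position 138880000 of hg19 (880 kb, chr9:138000001-138880000) and holds the genes KCNT1, CAMSAP1 and UBAC1. This interval was chosen with earlier results of these data known, though its rule goes by position and uses no read count. Its members are the restriction fragment ends whose listed position falls between these limits. They number 2995 of the 382657 fragment ends of chromosome 9 in the tables of the NOTCH1 promoter viewpoint, 3323 of 429740 in those of viewpoint S2 and 3319 of 428705 in those of viewpoint S4, which is 0.773 to 0.783% of the ends. In all, 3437 positions occur in at least 1 kind of table and 2891 in all 3. The interval lies on the centromeric side of each viewpoint, 563 to 1443 kb from the promoter (position 139443268), 506 to 1386 kb from S2 (139385872) and 644 to 1524 kb from S4 (139523746).

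The 30 libraries are 4C-seq libraries of K562, an established human chronic myeloid leukaemia cell line. Each viewpoint was profiled in 5 genotypes with 2 libraries each: unedited cells (WT) and cells mutated at S2, at S4, at S5, or at both S4 and S5 (S4-S5), where these names stand for CTCF sites near NOTCH1. No other treatment or time point separates the groups. The labels state neither the kind of mutation, nor the position of S5, nor whether a mutant line is 1 clone. The libraries hold no expression data against which the cell line could be checked.

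In 4C-seq, cross-linked chromatin is cut with a restriction enzyme (here DpnII, which cuts at GATC) and ligated, and the fragments joined to 1 chosen fragment, the viewpoint, are amplified and counted. CTCF is a DNA-binding protein at which loop extrusion by cohesin tends to stop, so that CTCF sites often form loop anchors and boundaries of contact domains. Contact frequency falls steeply with distance, and an interval this far from a viewpoint is commonly sampled through few ligation events. KCNT1 encodes a sodium-activated potassium channel of neurons. CAMSAP1 encodes a protein that binds the minus ends of microtubules, and UBAC1 encodes a subunit of the KPC ubiquitin ligase. NOTCH1 encodes a receptor of the Notch pathway.

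In the RefSeq gene order of GRCh38.p14, used here for names and neighbours only, KCNT1, CAMSAP1 and UBAC1 stand next to each other, with SOHLH1 before KCNT1 and NACC2 after UBAC1. Positions of the genes in hg19, and hence exons, introns and untranslated regions at single fragment ends, were not assigned. Other genes listed before KCNT1 may lie in the interval too, and no window below is tied to a gene. The 250 bases before the start of each gene are shown because an end can be read only where DpnII cuts. They are from RefSeq (GRCh38.p14), written 5′ to 3′ on the gene's own strand, and capitals mark GATC, the sequence that DpnII cuts. All 3 genes were matched by symbol: KCNT1 on the plus strand at chr9:135701935-135702184, CAMSAP1 on the minus strand at chr9:135907547-135907796, and UBAC1 on the minus strand at chr9:135961374-135961623.
KCNT1: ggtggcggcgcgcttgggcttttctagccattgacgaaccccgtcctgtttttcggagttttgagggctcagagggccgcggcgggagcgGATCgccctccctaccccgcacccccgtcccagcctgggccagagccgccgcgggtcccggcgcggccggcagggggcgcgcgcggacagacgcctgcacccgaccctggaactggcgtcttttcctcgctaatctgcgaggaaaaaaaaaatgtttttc
CAMSAP1: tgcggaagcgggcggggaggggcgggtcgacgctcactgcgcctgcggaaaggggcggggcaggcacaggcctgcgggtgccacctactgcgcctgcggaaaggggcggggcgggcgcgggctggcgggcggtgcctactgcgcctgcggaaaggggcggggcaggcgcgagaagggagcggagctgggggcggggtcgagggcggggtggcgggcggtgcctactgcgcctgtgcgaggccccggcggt
UBAC1: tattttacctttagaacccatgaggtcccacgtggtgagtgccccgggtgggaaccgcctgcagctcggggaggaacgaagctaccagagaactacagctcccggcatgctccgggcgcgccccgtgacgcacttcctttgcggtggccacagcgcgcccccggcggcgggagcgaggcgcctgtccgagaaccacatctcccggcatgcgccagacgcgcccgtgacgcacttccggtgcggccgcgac
The KCNT1 stretch holds 1 GATC, and the CAMSAP1 and UBAC1 stretches hold 0. GATC reads the same on both strands, and 35.8% of the 35116 promoters of this length in the table (12569) hold at least 1. The G and C content was 66.8% for KCNT1, 78.8% for CAMSAP1 and 68.4% for UBAC1.

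Libraries held 1437870 to 8008761 reads on chromosome 9. Reads within 5 kb of the viewpoint, 31.4 to 98.6% of them, were left out, and every share below is a percentage of the 76932 to 3102118 reads that remained. The 6 WT libraries were the shallowest on chromosome 9 (1437870 to 2326487 reads, against 3500663 to 8008761 in the 24 mutant libraries). They also placed more of their remaining reads beyond 500 kb of the viewpoint, 26.6 to 33.3% against 10.1 to 18.4%. The part left out near the viewpoint was smaller in WT than in the mutants at each viewpoint. It was 77.3 to 77.8% against 88.1 to 98.6% from the promoter and 59.8 to 60.3% against 61.3 to 76.7% from S2. From S4 it was 31.4 to 32.1% against 56.8 to 90.9%. All these properties move with every comparison of a mutant with WT, and their part in the results was not tested. The interval itself received 2902 to 102338 reads per library. 4C reads carry no molecular identifiers, so reads at 1 end are not independent ligation events.

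Seen from the NOTCH1 promoter, the interval took its largest share of reads in WT, less in each mutant and least in the S5 mutant. Its share was 5.03 and 5.00% in the WT libraries. The S2 mutant had 3.77 and 3.79%, and the S4 mutant 4.16 and 4.09%. The S5 mutant had 2.27 and 2.28%, and the S4-S5 mutant 2.78 and 2.74%. No mutant library reached a WT library, and no genotypes overlapped. The fitted log2 fold against WT was -0.41 (SE 0.037) for the S2 mutant and -0.28 (SE 0.020) for the S4 mutant. It was -1.14 (SE 0.031) for the S5 mutant and -0.86 (SE 0.017) for the S4-S5 mutant. Each passed edgeR's quasi-likelihood F test, with Benjamini-Hochberg adjusted p between 1.77e-205 and 1.51e-25. So did nearly every tile of chromosome 9 of the same 880-kb length: 97.2, 100, 97.2 and 98.1% of 108 tiles in these 4 contrasts.

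From viewpoint S2, the S2 mutant had the highest interval shares, a little above WT but short of the test's threshold, and the other 3 mutants lay below WT. The WT libraries gave 4.57 and 4.54%, and the S2 mutant, in which the site at the viewpoint itself is mutated, gave 4.72 and 4.66%. The S4 mutant gave 3.43 and 3.41%, the S5 mutant 2.07 and 1.98%, and the S4-S5 mutant 2.96 and 2.85%. The S2 mutant had a log2 fold of 0.044 (95% interval -0.0046 to 0.092, edgeR adjusted p = 0.093), which missed the threshold of 0.05. Its place above WT rested on 1 end: without the most read end of each library, the S2 mutant gave 3.91 and 3.84% and WT 4.48 and 4.46%. On non-blind ends alone it lay below WT as well, at 3.10 and 2.99% against 4.27 and 4.28% (log2 fold -0.49, edgeR adjusted p = 4.62e-23). On the log2 scale the share fell by 0.41 in the S4 mutant, by 1.17 in the S5 mutant and by 0.65 with both sites mutated (edgeR adjusted p = 9.13e-13, 1.03e-19 and 4.50e-16). Over the 105 tiles, 98.1, 97.1, 93.3 and 95.2% passed in the contrasts of the S2, S4, S5 and double mutants.

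With S4 as viewpoint, WT was again highest, and the S2 and S5 mutants shared the lowest shares. WT gave 4.80 and 4.79%, the S2 mutant 2.91 and 3.08%, the S4 mutant 3.76 and 3.78%, the S5 mutant 2.92 and 2.84%, and the S4-S5 mutant 3.44 and 3.47%. The libraries of the S2 and S5 mutants overlapped, and all other genotypes were apart. The order of the mutants turned on non-blind ends, where the S2 mutant was the highest of them (3.59 and 3.88%) and the S4 mutant the lowest (2.96% in both), with log2 folds of -0.29 and -0.62. The log2 folds against WT were -0.68 (S2), -0.35 (S4), -0.73 (S5) and -0.47 (S4-S5), each with an SE between 0.017 and 0.018 and an edgeR adjusted p between 7.30e-176 and 4.27e-68. The share of all 112 tiles past the test was 100, 98.2, 96.4 and 99.1%.

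**Figure D1:**
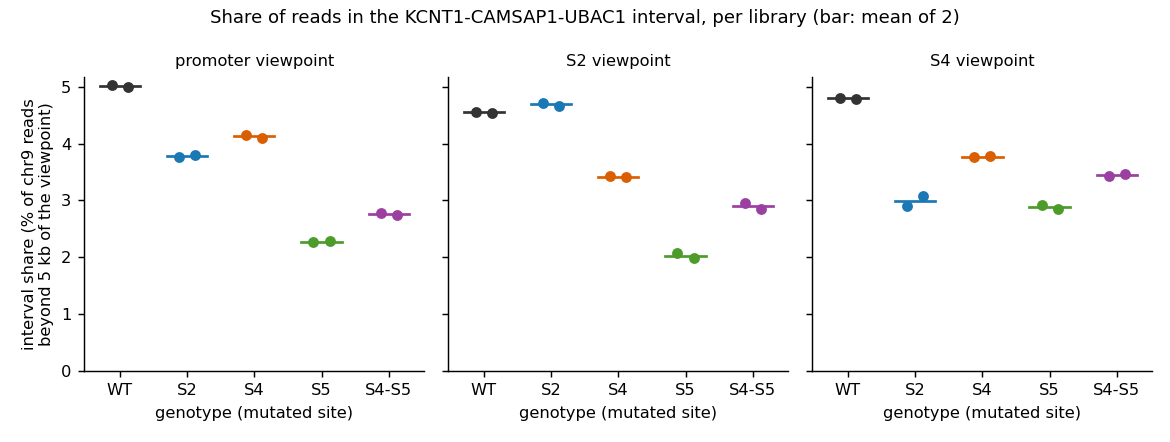
Interval share of chromosome 9 reads beyond 5 kb of the viewpoint, in percent, for each of the 30 libraries (points) with the mean of 2 (bars), by genotype and viewpoint. WT lies between 4.54 and 5.03% at every viewpoint, and the S5 mutant is lowest at the promoter and S2.

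Among genotypes, the interval share differed by the exact permutation test of the F statistic over all 945 partings of 10 libraries into 5 pairs (upper tail). The p was 0.00106 at the promoter and at S2, the smallest this design can give, and 0.00212 at S4 (adjusted over 18 such tests, 0.00127, 0.00127 and 0.00238). A single mutant against WT, 2 libraries against 2, cannot go below 0.333. A lower share can mean fewer cells with the contact, fewer ligations per cell, or more reads on other parts of chromosome 9. These cannot be told apart by the share. The spread that sets these p-values is that between 2 libraries of 1 genotype, which may be technical. The same holds for every other permutation or edgeR p-value given here.

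On the scale of reads beyond 5 kb, the double mutant lay between its single mutants at every viewpoint. The S4-S5 mutant lay -0.58, -0.23 and -0.13 on the log2 scale from the S4 mutant at the promoter, S2 and S4, and 0.28, 0.52 and 0.26 from the S5 mutant. All 6 contrasts passed edgeR's test (largest adjusted p 3.14e-08), as did 75.9, 63.8 and 63.4% of tiles against the S4 mutant and 73.1, 63.8 and 71.4% against the S5 mutant. Scaled to reads beyond 500 kb, the difference from the S5 mutant missed the threshold at the promoter (log2 fold 0.020, edgeR adjusted p = 0.645) and at S4 (0.043, adjusted p = 0.079). TMM factors ended the call against the S4 mutant at S2 (-0.062, edgeR adjusted p = 0.298) and against the S5 mutant at S4 (-0.067, adjusted p = 0.755). The place between the single mutants did not hold in all settings. On non-blind ends from S4, the S4-S5 mutant (3.21 and 3.23%) was above the S4 mutant (2.96% in both) and the S5 mutant (3.09 and 2.99%). With DESeq2's size factors its log2 fold against WT was below those of both single mutants from S2 (2.51 against 3.31 and 3.21) and from S4 (2.98 against 3.81 and 3.81).

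The direction of the comparison with WT depends on the denominator. The interval's fold was higher than that of most tested tiles of chromosome 9: the median log2 fold over all tiles ran from -7.57 to -2.01 in the 12 contrasts with WT, and 69.4 to 94.4% of tiles had a lower fold than the interval. Tiles were kept by their mean over all 10 libraries of a viewpoint, so a tile read almost only in WT could pass. Such tiles lower the median, and the interval's rank is a description only. Of the reads beyond 500 kb, the interval took 15.0 to 18.1% in the WT libraries and 15.6 to 33.4% in the mutant libraries. On that scale all 12 log2 folds were positive, from 0.069 in the S5 mutant at the promoter (edgeR adjusted p = 0.036) to 0.89 in the S4 mutant at S4, and all passed. Each covered end was also counted once in place of its reads and scaled to all covered ends outside the mask. This left log2 folds between -0.11 and 0.33, and only the S4 mutant at the promoter passed (0.33, edgeR adjusted p = 3.62e-04). These folds are of the interval's share of covered ends, not of their number.

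**Figure D2:**
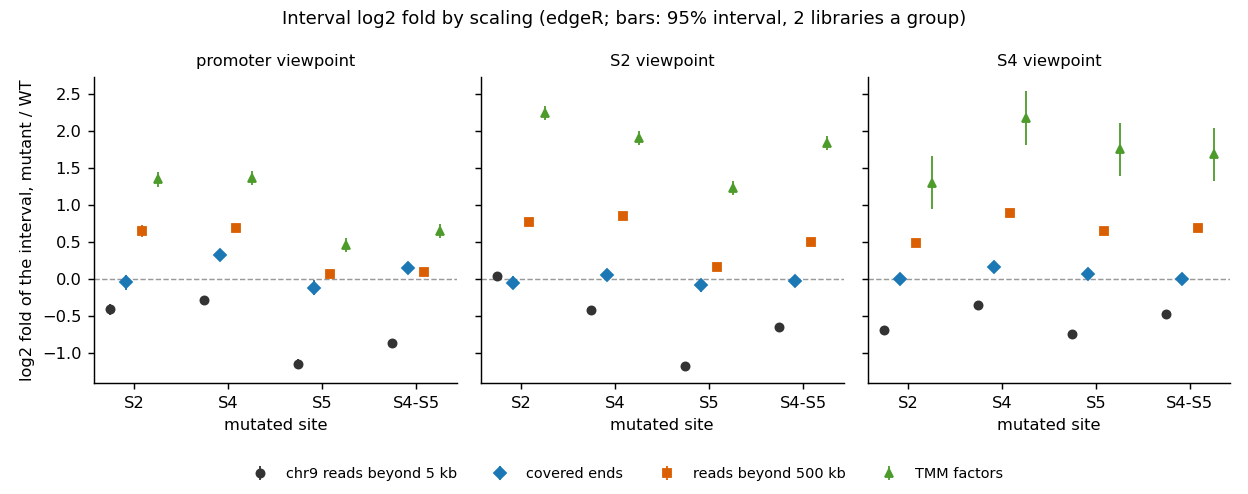
Log2 fold of the interval, mutant over WT, by edgeR with 95% intervals (2 libraries a group), for reads scaled to chromosome 9 reads beyond 5 kb, to reads beyond 500 kb or by TMM factors, and for covered ends. Covered ends were scaled to all covered ends of chromosome 9 beyond 5 kb. Reads beyond 5 kb put 11 of 12 folds below 0, while reads beyond 500 kb and TMM factors put all 12 above 0.

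Every library read the interval more densely than the chromosome as a whole. Reads per end were 2.57 to 6.43 times the chromosome 9 mean outside the mask, with 5.87 to 6.43 in WT and 2.57 to 6.11 in the mutants. Of the interval's ends, 12.1 to 16.0% had at least 1 read in the WT libraries and 4.74 to 12.6% in the mutant libraries. The mutant libraries were the deeper ones on chromosome 9, but not all were deeper outside the mask. From the promoter the S2 mutant had 76932 and 81895 reads there, against 318591 and 525512 in WT. From S2 the S4 mutant had 2321381 and 2611491, against 713125 and 934399 in WT. Beyond 500 kb outside the interval, 0.513 to 0.782% of ends had a read in the WT libraries and 0.201 to 0.495% in the mutant libraries. Single-read ends made up 15.0 to 19.5% of the interval's covered ends in WT and 19.4 to 63.8% in the mutants.

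Coverage was compared at 1 depth per viewpoint, the smallest number of reads outside the mask in its 10 libraries (76932 at the promoter, 713125 at S2, 481265 at S4). At that depth the promoter's WT libraries would cover 10.1% of the interval's ends each. The S2 mutant would cover 5.08 and 4.56%, and the S4 mutant 7.49 and 7.51%. The S5 mutant would cover 3.75 and 3.64%, and the S4-S5 mutant 7.80 and 7.72%. From S2 the WT libraries reached 13.7 and 13.3%, and the mutants 6.83 and 6.92% (S2), 7.54 and 7.66% (S4), 5.08 and 5.40% (S5), and 6.07 and 5.99% (S4-S5). From S4 they reached 13.7 and 13.1%, against 9.22 and 8.59% (S2), 8.22 and 8.34% (S4), 6.06 and 5.97% (S5), and 6.54 and 6.52% (S4-S5). WT was highest and the S5 mutant lowest at all 3 viewpoints, with no overlap. The exact permutation p among genotypes was 0.00106 at each (adjusted 0.00127). WT's higher coverage was not particular to the interval. As counted, 1.04 to 1.31% of all chromosome 9 ends outside the mask had a read in WT, against 0.502 to 0.985% in the mutants. Of these covered ends, the interval held 7.59 to 11.3% in WT and 7.03 to 12.7% in the mutants.

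The interval was split into 22 windows of 40 kb, numbered from its centromeric edge, so that window 22 lies nearest the viewpoints. WT reads spread over all of them, with 0 windows under 0.01% of reads in both libraries at any viewpoint. Of the S2 mutant's windows, 6 were under that level from the promoter, 12 from S2 and 10 from S4. The S5 mutant had 6, 9 and 5 such windows, the S4-S5 mutant 2, 3 and 2, and the S4 mutant 0, 2 and 0. No share of such windows over all of chromosome 9 is given here, so these counts describe the interval alone. Over all tested windows of the chromosome, the S2 mutant's median log2 fold against WT was -4.59, -7.01 and -6.22 from the promoter, S2 and S4. The highest WT windows lay at the near edge from the promoter (window 21, chr9:138800001-138840000, 0.643% ± 0.016 (SD, n = 2), then windows 22 and 20) and from S2 (window 20, chr9:138760001-138800000, 0.509% ± 0.0050 (SD, n = 2), then windows 19 and 21). From S4 they were window 22 (0.551% ± 0.0025 (SD, n = 2)) and 2 windows more than 1000 kb away, 12 and 10, with 0.429 and 0.385%.

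**Figure D3:**
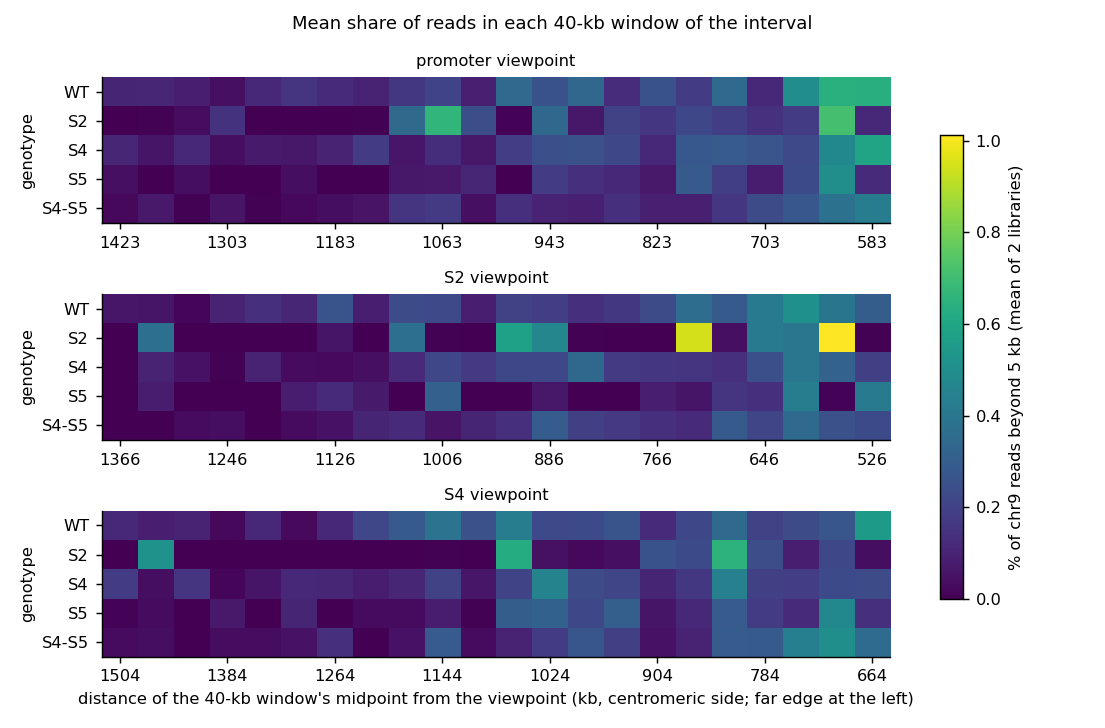
Mean share of chromosome 9 reads beyond 5 kb (percent, mean of 2 libraries) in each 40-kb window of the interval, against the distance of its midpoint from the viewpoint in kb, for 5 genotypes at each viewpoint. WT fills every window, while the S2 mutant has 6 to 12 windows under 0.01% and a maximum of 1.01% in window 21 from S2.

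Nearly every window differed from WT, as did most windows of the chromosome. From the promoter, 22 windows of 22 passed edgeR's test for the S2 mutant (9 higher, 13 lower) and 19 for the S4 mutant (5 and 14). For the S5 mutant 22 passed (2 and 20), and for the S4-S5 mutant 21 (3 and 18). The background over 789 windows was 82.3, 85, 85.2 and 90% in these contrasts, with 10.1, 16.1, 14.6 and 24.1% higher and 72.1, 68.9, 70.6 and 65.9% lower. From S2 the counts were 21 (6 and 15), 20 (6 and 14), 21 (3 and 18) and 20 (5 and 15), against 83.1, 86.6, 85.6 and 89.4% of 756 windows, with 7.28, 15.6, 12.4 and 19.3% higher and 75.8, 71, 73.1 and 70.1% lower. From S4 they were 21 (5 and 16), 19 (5 and 14), 21 (5 and 16) and 22 (7 and 15), against 85.5, 88.2, 87.2 and 89.6% of 786 windows, with 6.87, 13.9, 11.1 and 16.9% higher and 78.6, 74.3, 76.1 and 72.6% lower. At 86.4 to 100%, the share of the interval's windows called is near this background. The median log2 fold was less negative in the interval (-4.13 to -0.30) than over all windows (-7.72 to -1.74) in each of the 12 contrasts. Windows were kept by their mean over all libraries of a viewpoint, so windows read almost only in WT could pass and lower the second median.

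The split between higher and lower also depends on the denominator. Scaled to reads beyond 500 kb, the higher and lower windows from the promoter were 10 and 10 (S2 mutant), 16 and 3 (S4), 7 and 10 (S5), and 8 and 10 (S4-S5). In the same order they were 8 and 14, 17 and 4, 7 and 13, and 14 and 7 from S2, and 7 and 15, 17 and 3, 12 and 9, and 12 and 7 from S4. The S4 mutant thus had mostly higher windows at all 3 viewpoints on this scale and mostly lower ones on the scale of reads beyond 5 kb. Covered ends in place of reads were scaled to all covered ends outside the mask. With them, 0 windows passed in 11 contrasts by edgeR (0 to 3 at an unadjusted p under 0.05) and 1 in the S4 mutant at the promoter (3 unadjusted).

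Falls were nearly complete in single windows, named here as the largest falls. Large falls were common on chromosome 9. The median log2 fold over all its tested windows was -4.50 for the S5 mutant from the promoter. From S2 it was -7.47 for the S5 mutant and -5.47 for the S4-S5 mutant, and from S4 -7.72 for the S4-S5 mutant. Windows read almost only in WT could lower these medians. Window 12 from the promoter (chr9:138440001-138480000) held 0.343 and 0.347% of reads in the WT libraries (1092 and 1825 reads) and 10 and 4 reads in the S5 mutant, a log2 fold of -6.65 (SE 0.17). The S2 mutant had 13 and 4 reads there, while the S4 mutant kept 0.191 and 0.180% and the S4-S5 mutant 0.142 and 0.133%. From S2, window 1 (chr9:138000001-138040000) held 404 and 600 WT reads and 0 reads in all libraries of the S5 and S4-S5 mutants, which are at least 745-fold and 1022-fold lower, taking 3 reads in the pair of libraries as the floor. These bounds cover counting error only, and the WT reads there came from 6 covered ends in each library. Window 8 from S4 (chr9:138280001-138320000) held 0.211 and 0.223% in WT and 4 and 9 reads in the S4-S5 mutant, a log2 fold of -9.65 (SE 0.18). The same window kept 0.088 and 0.075% in the S4 mutant and 0.030 and 0.030% in the S5 mutant.

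Rises were smaller and often rested on 1 end. The largest rise from S2 was window 2 (chr9:138040001-138080000) in the S2 mutant, at 0.377 and 0.365% against 0.057 and 0.058% in WT, a log2 fold of 2.69 (SE 0.099). In it, 1 end held 99.8% of the window's reads in both libraries. Window 4 from the promoter in the S2 mutant (log2 fold 1.83, SE 0.14) had 119 reads in each library, 99.2 to 100% of them at 1 end. Window 6 from S4 in the S5 mutant (log2 fold 2.07, SE 0.10) had 1538 and 1601 reads, 99.2 to 99.3% at 1 end. By contrast, window 19 from the promoter (chr9:138720001-138760000) rose in the S4 mutant (0.278 and 0.258% against 0.112 and 0.118% in WT, log2 fold 1.22, SE 0.072) over 17 covered ends. It rose in the double mutant too (0.240 and 0.223%, log2 fold 1.00, SE 0.068), over 23 covered ends.

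The reads of the interval came from few fragment ends, which the 2 libraries of a genotype shared and different genotypes mostly did not. Ends that held at least 0.1% of the interval's reads in both libraries of a genotype are called carrier ends here. From the promoter WT had 217, the S2 mutant 30, the S4 mutant 167, the S5 mutant 54 and the S4-S5 mutant 178. The numbers from S2 were 180, 16, 126, 34 and 111, and those from S4 208, 15, 134, 58 and 126, in the same order. They made up 0.452 to 7.25% of the interval's ends and held 93.5 to 98.5% of its reads. At this cut WT had most and the S2 mutant fewest at every viewpoint. At a cut of 0.5% the S2 mutant still had fewest (24, 16 and 13 from the promoter, S2 and S4), but WT (58, 68 and 59) had fewer than the S4 mutant (78, 76 and 80) and the S4-S5 mutant (69, 74 and 78).

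Of the ends that were carriers in any genotype, 513 of 573 from the promoter (89.5%), 378 of 421 from S2 (89.8%) and 409 of 470 from S4 (87.0%) were carriers in 1 genotype. No end of the interval was a carrier in all 5 genotypes at any viewpoint. By the same rule these shares were of like size elsewhere at this range: 85.2, 87.9 and 95.7% in the mirror image of the interval (equal distances on the telomeric side) and 88.7, 94.9 and 93.2% in the next 880 kb on the centromeric side. Within 500 kb of the viewpoints, 44.3, 49.1 and 41.3% of carriers were carriers in 1 genotype, and 69, 49 and 52 ends were carriers in all 5. The differences between regions were not tested. Within 1 genotype, the share of its carriers found in no other genotype ran from 65.5% (S5 mutant at S4) to 93.8% (S2 mutant at S2). Across ends, log2 reads correlated at r = 0.89 to 0.99 between the 2 libraries of a genotype. Between genotypes r was 0.083 to 0.18 from the promoter, 0.21 to 0.50 from S2 and 0.18 to 0.47 from S4. These correlations are over the fragment ends of 1 viewpoint's table, which share one set of cut sites, and are descriptions.

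**Figure D4:**
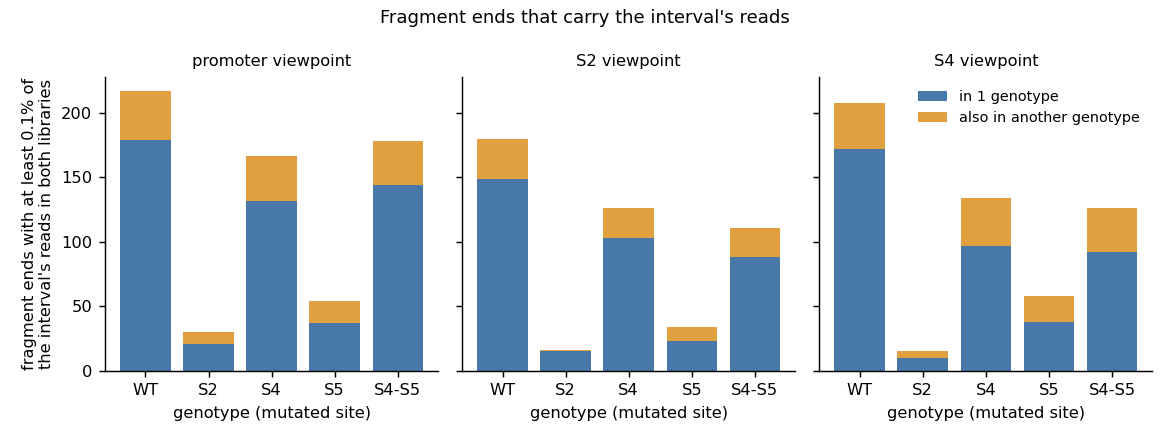
Number of carrier ends (at least 0.1% of the interval's reads in both libraries) per genotype and viewpoint, split into ends that carried reads in 1 genotype and ends that did so in another genotype as well. The S2 mutant has 30, 16 and 15 carrier ends from the promoter, S2 and S4, against 217, 180 and 208 in WT.

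The counts of the 2 libraries of a genotype differed over ends with a chi-square per degree of freedom of 1.21 to 10.6, and 1.21 to 1.57 from the promoter. Counting error alone gives about 1, so from the promoter the 2 libraries differed little beyond it. These values do not decide whether the 2 libraries share a ligated template, and the labels do not say. They were kept as 2 samples because the labels list them so. If they share a template, the spread behind every test here is technical only. Any read at all was shared more widely than carrier status: 35 ends from the promoter (4.68% of covered ends), 203 from S2 (33.2%) and 242 from S4 (33.6%) had a read in all 5 genotypes. Among viewpoints, carriers of the same genotype coincided little. Pooled over genotypes, 6.35% of the promoter's carriers at positions listed in both tables were also carriers from S2 (9.68% of those from S2), against 3.75% (5.71%) for different genotypes. For the promoter and S4 these shares were 6.54% (8.57%) against 3.64% (4.76%), and for S2 and S4 10.1% (8.75%) against 7.11% (6.15%).

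Concentration on few ends was strongest in the S2 mutant. The 10 most read ends held 64.2 and 64.5% of the interval's reads in the S2 mutant from the promoter, 86.8 and 86.9% from S2 and 91.4 and 92.5% from S4. In WT they held 12.7 and 12.9%, 16.4 and 15.7%, and 12.8 and 13.6%. The S5 mutant lay in between, with 38.5 and 38.9%, 63.1 and 63.0%, and 39.1 and 38.1%. The S4 mutant held 15.5 to 22.5% and the S4-S5 mutant 16.3 to 23.4% at these ends. Genotypes differed at each viewpoint by the exact permutation test (p = 0.00106, adjusted 0.00127), in a measure added after the data were examined.

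The single most read end differed among all 15 combinations of viewpoint and genotype. From S4, the end at position 138710688 (fragment chr9:138710390-138710692) took 3288 and 3165 reads in the S2 mutant, 21.7 and 21.3% of the interval's reads, and up to 1934 reads in a library of another genotype. From S2, the end at 138658453 (chr9:138658449-138658973) took 6924 and 7729 reads in the S2 mutant, 17.9 and 18.4%, while no library of another genotype had more than 344 reads there. From the promoter, the end at 138384708 (chr9:138384402-138384712) took 309 and 419 reads in the S2 mutant, 10.6 and 13.5%, and at most 1 read in a library of another genotype. The most read end of WT from the promoter, at 138779984 (chr9:138779734-138779988), took 1.59 and 1.84% of the interval's reads, and at most 3 reads in a mutant library. WT's leading ends from S2 and S4 took 1.79 to 1.98% of the interval's reads.

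Within a library, the interval was compared with its mirror image, the places at the same distances on the telomeric side, in reads per fragment end. From the promoter the log2 ratio was near 0 in WT (0.094 and 0.080) and in the S5 mutant (0.12 and 0.11). It was higher in the S2 mutant (0.46 and 0.45) and the S4 mutant (0.44 and 0.47), and below 0 in the S4-S5 mutant (-0.27 and -0.29). From S2 it was 0.22 and 0.18 in WT, 0.57 and 0.56 in the S4 mutant, -0.051 and -0.052 in the S2 mutant and -0.63 and -0.66 in the S5 mutant. With S4 and S5 both mutated it was -0.13 and -0.17. The S2 mutant's value turned without the most read end on each side, to 0.37 in both libraries against 0.22 and 0.19 in WT, and was 0.16 and 0.31 on covered ends against 0.15 and 0.10 in WT. On non-blind ends it stayed below WT, at -1.21 and -1.28 against 0.12 and 0.10. From S4 the interval exceeded its mirror image in every library: 0.81 and 0.79 in WT, 1.09 and 1.19 (S2 mutant), 1.71 and 1.72 (S4), 1.65 and 1.60 (S5), and 1.40 and 1.35 (S4-S5). The S4 mutant was above WT at all 3 viewpoints.

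Genotypes differed in this ratio by the exact permutation test (p = 0.00317 at the promoter, 0.00106 at S2 and S4, adjusted 0.00336, 0.00127 and 0.00127). With covered ends in place of reads, the call ended at S2 (exact permutation p = 0.186). Both sides of the ratio moved: the mirror image held 4.62% of reads in WT from the promoter and 2.06 to 3.28% in the mutants (group means). From S2 it held 3.92% in WT and 2.28 to 4.81% in the mutants, with the S2 mutant above WT. From S4 it held 2.72% and 0.925 to 1.34%.

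**Figure D5:**
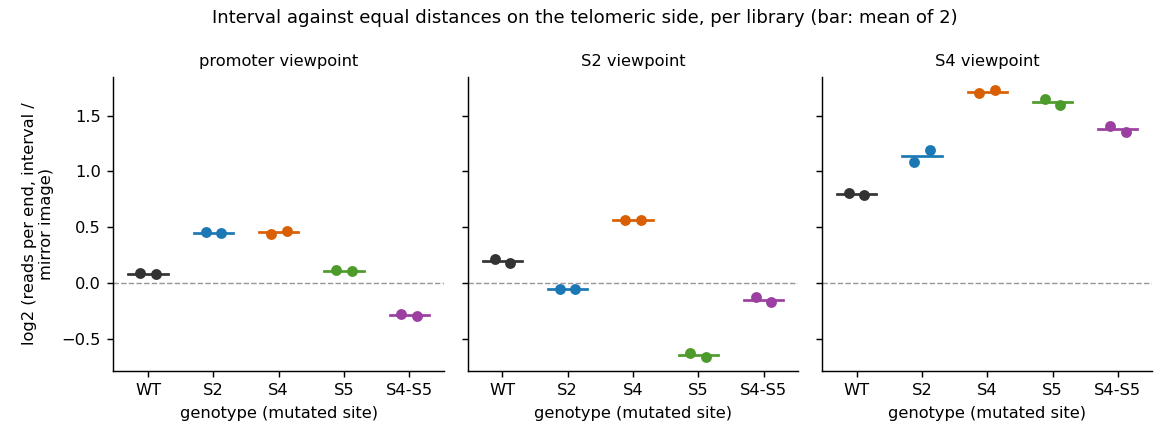
Log2 ratio of reads per fragment end in the interval to reads per end at equal distances on the telomeric side, for each library (points) with the mean of 2 (bars). From S4 all 10 libraries lie above 0, and from S2 the S2, S5 and S4-S5 mutants lie below 0 (the S2 mutant not without its most read ends).

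Reads were sparser beyond the centromeric edge of the interval. Reads per end in the interval exceeded those in the next 880 kb by a mean log2 ratio of 1.80, 1.95 and 2.33 in WT from the promoter, S2 and S4. In the mutants this ratio ran from 1.26 (S4-S5) to 1.83 (S2) from the promoter, from 1.06 (S2) to 2.95 (S5) from S2 and from 1.24 (S2) to 3.06 (S5) from S4. Among genotypes it missed the threshold at the promoter (exact permutation p = 0.0529) and passed at S2 and S4 (p = 0.00106, adjusted 0.00127).

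Within the interval, windows 12 to 22 on the viewpoint side held most reads, from 60.4 to 87.7% over the 30 libraries, with 50.0 to 50.5% of the ends. WT gave 74.1 and 74.6% from the promoter, 69.6 and 70.1% from S2 and 64.6 and 64.2% from S4. The S2 mutant was lower than WT from the promoter in reads, at 62.2 and 60.4%, but not in covered ends (75.0 and 76.8% against 70.5 and 69.6%). It was higher from S2 (82.4 and 83.0%) and from S4 (82.7 and 80.9%). The S5 mutant was higher from the promoter (84.2 and 83.7%) and from S4 (87.1 and 87.7%), and lower from S2 (67.2 and 67.7%). In covered ends from S2 it was above WT, at 75.8 and 75.6% against 71.4 and 70.9%. The S4 and S4-S5 mutants were above WT at every viewpoint, at 70.0 to 76.5% and 76.9 to 81.7%. Genotypes differed at each viewpoint (exact permutation p = 0.00106, adjusted 0.00127). Of the covered ends, 68.2 to 77.6% lay on this side, with 68.2 to 71.4% in WT and 69.4 to 77.6% in the mutants.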

How the data were processed

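Per the labels' protocols, K562 cells (10 M per library) were fixed in 2% formaldehyde for 10 min and digested with DpnII, then with NlaIII or CviQI. After ligation, 200 ng of template went through 16 cycles of a first PCR and was sequenced as single reads of 150 bp. deepTools and the build hg19 are named in the submitters' processing notes without a role. The sources used here give no aligner, read filter or counter. Each table lists the ends of restriction fragments of chromosome 9. Per the file headers, the deposited values used are whole read counts per fragment end. The deposited scaled signal and its smoothed form were not used, since a count model needs counts.

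Counts of the 30 libraries were summed over the interval, over 880-kb tiles and 40-kb windows laid on chromosome 9 so that they fit the interval, over its mirror image and over the adjacent tile. Tiles and windows with a mean under 10 reads were left out; all 22 windows of the interval passed. Library size was the number of chromosome 9 reads beyond 5 kb of the viewpoint. edgeR 4.0.16 (quasi-likelihood F test, R 4.3.3) fitted all 10 libraries of a viewpoint, two-sided, with Benjamini-Hochberg adjustment over all tiles or windows and a threshold of 0.05. Values per library were compared by exact permutation (upper tail, family of 18, including 9 tests of 3 measures added after the data were examined). DESeq2 1.42.0, TMM factors, other masks, windows and filters, non-blind or covered ends, a replicate block and left-out libraries were alternatives. Named windows were, for each viewpoint, the 3 with the highest WT share and, for each mutant, those with the largest rise and fall past the threshold in which both mutant libraries lay beyond both WT libraries; the most read end of each genotype was named too. The text gives some of these in full. On simulated counts with a log2 fold of 1 for the S5 mutant against WT, the tile fit recovered 95, 100 and 95% of changed tiles at the promoter, S2 and S4 (of 108, 105 and 112 tiles). The window fit recovered 63.5, 94 and 91% (of 789, 756 and 786 windows). Of unchanged tiles 3.41, 0 and 0% were called, and of unchanged windows 0.849, 0.719 and 1.37%. Only 20 tiles or 200 windows were changed, in independent counts of 1 fixed dispersion. The data differ, with most tiles called and reads piled on few ends, so these rates do not carry over to them. The interval and the lists were chosen with earlier results of these data known.

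The 2 libraries of a genotype share numbers across genotypes. Differences between libraries 1 and 2 over tiles correlated between genotypes at a median r of 0.072, 0.036 and 0.017 at the promoter, S2 and S4, so the numbers were not taken as pairs.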

Additional observations from a re-analysis of the deposited data

Results flagged for a closer look

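The S2 mutant moved away from WT in opposite directions at different viewpoints, with both mutant libraries on 1 side of both WT libraries each time. The differences between viewpoints listed here were not tested. In log2 interval share, S2 mutant minus WT was -0.41 with the promoter as viewpoint, 0.044 with S2 and -0.68 with S4. From S2 this direction rested on 1 end: without the most read end the S2 mutant had 3.91 and 3.84% against 4.48 and 4.46% in WT, and on non-blind ends its log2 fold was -0.49. On both measures it was below WT at all 3 viewpoints. In the log2 ratio of the interval to its mirror image it was 0.37, -0.25 and 0.34. Without the most read end on each side, the mean ratio from S2 was 0.37 in the S2 mutant and 0.21 in WT, which turned this direction. On non-blind ends the direction was kept, at -1.21 and -1.28 in the S2 mutant against 0.12 and 0.10 in WT. In the share of the interval's reads on the side nearer the viewpoint, S2 mutant minus WT was -13.0, 12.9 and 17.4 percentage points. In covered ends the S2 mutant was above WT from the promoter too, at 75.0 and 76.8% against 70.5 and 69.6%.

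The S5 mutant minus WT was 0.025, -0.85 and 0.82 in the same order in the log2 ratio to the mirror image. From the promoter the S5 mutant was below WT on non-blind ends (-0.14 and -0.19 against 0.014 and 0.027). From S2 it stayed below WT on non-blind ends (-0.60 and -0.66 against 0.12 and 0.10). On covered ends from S2 it overlapped WT (0.10 and 0.11 against 0.15 and 0.10). In the near-side share, S5 mutant minus WT was 9.59, -2.35 and 23.0 percentage points. In covered ends from S2 the S5 mutant's near-side share was above WT, at 75.8 and 75.6% against 71.4 and 70.9%. The S4-S5 mutant minus WT was -0.37, -0.35 and 0.58 in the log2 ratio to the mirror image. On covered ends from S2 its ratio was 0.11 and 0.16, beside 0.15 and 0.10 in WT. On non-blind ends from S2 it stayed below WT, at -0.65 and -0.67 against 0.12 and 0.10. With 2 libraries in a group, no single library could be set against the rest.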

How the results depend on the processing

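Unless another reference is named, each list below gives the log2 fold of the interval against WT for the mutants S2, S4, S5 and S4-S5. TMM factors gave 1.35, 1.37, 0.46 and 0.65 at the promoter, 2.23, 1.90, 1.23 and 1.84 at S2, and 1.30, 2.17, 1.75 and 1.68 at S4. DESeq2 with its size factors gave 2.65, 1.45, 0.56 and 0.68, then 5.88, 3.31, 3.21 and 2.51, then 4.90, 3.81, 3.81 and 2.98. Scaling to reads beyond 500 kb gave 0.65, 0.69, 0.069 and 0.089, then 0.77, 0.86, 0.16 and 0.50, then 0.49, 0.89, 0.65 and 0.69. Under each of these 3 settings, 11 values reversed a fall, and that of the S2 mutant at S2 turned a difference short of the threshold into a called rise. Covered ends, scaled to all covered ends outside the mask, gave -0.044, 0.33, -0.11 and 0.15, then -0.047, 0.055, -0.082 and -0.026, then 0.0058, 0.16, 0.063 and 0.0066. With mutants that keep the site as reference in place of WT, the values were 0.35, 0.49, -0.80 and -0.46, then 0.79, 0.15, -0.98 and -0.69, then -0.16, 0.36, -0.22 and 0.20. Non-blind ends gave -0.49 for the S2 mutant at S2. The replicate block gave 0.044 there, now past the threshold, and changed no other call. The cause of these changes was not tested.

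With covered ends, exact permutation p among genotypes at S2 was 0.0899 for the interval share and 0.186 for the mirror ratio. The share of the 22 windows called was then 0% in 11 contrasts and 4.55% in the S4 mutant at the promoter. Leaving out any 1 library changed no call among the folds and the permutation tests of share, coverage and mirror ratio. Single windows did change: without 1 library, 86.4 to 90.9% of windows passed for the S4-S5 mutant at the promoter (95.5% with all) and 86.4% for the S4 mutant at S2 (90.9% with all). Over all 12 contrasts 81.8 to 100% passed. The S2 and S5 mutants at the promoter had the fewest reads in the interval (2902 to 4685).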
